A study of Homo sapiens with 6 samples.

Results

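The microRNAs hsa-miR-191-5p and hsa-miR-425-5p, written miR-191-5p and miR-425-5p below, are 2 of the 161 known miRNAs, and of the 276 known and predicted miRNAs, listed for exosomes of HaCaT cells. HaCaT cells are human keratinocytes of a long-established skin line, and exosomes are small membrane vesicles that cells release. The pair was chosen by name because the hairpins of both lie side by side in the genome while the authors' deposited table lists miR-191-5p as lower and miR-425-5p as higher after hydrogen peroxide (H2O2). The counts of these same libraries therefore chose the members, and their levels, fold changes and ratio are given as a description with no test. Small RNA was sequenced from exosomes that had been collected from the medium by ultracentrifugation, in 3 libraries from untreated cells and 3 from cells given 0.4 mM H2O2. The labels call the replicates biological and give 24, 25 and 26 h for H2O2 replicates 1, 2 and 3, so time and replicate number cannot be told apart, although 24 h is the one time in the series text. All 6 libraries come from this 1 cell line.

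A miRNA is cut from a hairpin in a longer primary transcript, and 1 arm of the hairpin is usually kept in an Argonaute protein, where the bases near its 5′ end, the seed, pair with target mRNAs. Hairpins that lie close together on the same strand are often cut from the same primary transcript, and the amounts of their mature miRNAs can still differ, since each is cut, loaded, degraded and exported on its own. In cultured keratinocytes miR-191 is known as a miRNA that accumulates in senescence, and miR-425-5p is known to act on the mRNA of NPPA, which encodes a natriuretic peptide. Both are often used as reference miRNAs when small RNA of serum or vesicles is measured by PCR.

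In the RefSeq table for GRCh38.p14 the MIR191 hairpin lies at chr3:49020618-49020709 and the MIR425 hairpin at chr3:49020148-49020234, both on the minus strand, so MIR191 comes first in the direction of transcription. The hairpins are 92 and 87 bases long, their starts are 470 bases apart and 383 bases lie between them. In GENCODE release 29 both lie in the first intron of a principal coding transcript of DALRD3, a gene whose protein takes part in tRNA methylation. Of the DALRD3 transcripts, 4 span each hairpin and 0 have an exon over it. On the opposite strand 1 transcript of NDUFAF3, a gene for an assembly factor of mitochondrial complex I, spans MIR191 with an intron. No source used here gives the build behind the deposited counts, so these positions come from the annotation alone. The sequences below are RefSeq's, with the seed (bases 2 to 8) in capitals. They show the counted arm of MIR191 and the opposite arms of both hairpins. The RefSeq table used has no mature sequence for miR-425-5p, so it is not printed and its seed was not compared.
miR-191-5p: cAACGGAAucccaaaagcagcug
miR-191-3p: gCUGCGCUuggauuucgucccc
miR-425-3p: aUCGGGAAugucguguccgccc
The MIR191 hairpin is shown whole, with the counted 5p arm in capitals.
MIR191: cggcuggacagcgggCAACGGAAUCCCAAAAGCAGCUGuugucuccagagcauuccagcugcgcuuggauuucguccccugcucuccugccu
Of the 2370 mature miRNA names in the RefSeq table, 1 carries the seed of miR-191-5p, namely miR-191-5p, so it stands without a seed family in that table. Neither 3p arm has a row in the tables used here, and their levels were not analysed here. The predicted miRNAs are named by chromosome and number without positions, so none could be placed near the pair.

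The library totals behind the deposited counts per 1000000 reads (CPM) ran from 2449856 to 5405525 reads. The share of miR-1246, an abundant listed miRNA that varied widely between libraries, ran from 0.130% to 1.15% of the total across the untreated libraries, and was 3.32% in H2O2 replicate 1, 0.261% in replicate 2 and 27.4% in replicate 3. Reads of miR-1246 stand in the denominator of every CPM value, so the levels below are also given without them. The tables hold only rows that the authors selected for a difference. Of 7 keratinocyte marker miRNAs, such as miR-203a-3p and miR-205-5p, 0 are listed, so the keratinocyte label could not be checked. Of 7 blood and serum miRNAs, 4 are listed, all as lower (miR-451a, miR-486-5p, miR-122-5p and miR-142-5p). Their summed level was 52.8 to 174 CPM in the untreated group against 14.6 to 24.1 CPM after H2O2. Of all 161 known rows, 82 are listed as lower and 46.6% have every H2O2 library below every untreated one. Of 3 muscle miRNAs, miR-1-3p and miR-133a-3p are listed. Their summed level was 2.59 to 12.9 CPM in the untreated group against 1.95 to 211 CPM after H2O2. H2O2 replicate 2 alone made the top of that range. There miR-1-3p was at 197 CPM, against 1.95 and 3.63 CPM in H2O2 replicates 1 and 3. miR-133a-3p was at 0 in all untreated libraries and in H2O2 replicate 1. The part of these miRNAs in the values of miR-191-5p and miR-425-5p was not tested.

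miR-191-5p was counted at 7278, 4353 and 8286 CPM in untreated replicates 1, 2 and 3 and at 3124, 3252 and 2372 CPM in H2O2 replicates 1, 2 and 3. Every H2O2 library lay below every untreated library, the nearest being untreated replicate 2. The mean went from 6639 ± 2043 CPM without H2O2 to 2916 ± 475 CPM with it (SD over 3 libraries each), which is 2.28-fold lower. The edgeR fit across the 186 known and predicted rows with enough counts gave a log2 fold change of -1.19 ± 0.42 (SE). By mean level miR-191-5p stood 6th of the 161 known rows in untreated and 8th in H2O2 exosomes. These means rest on 7967 to 44792 reads a library, so counting error was small beside the spread between replicates. In untreated replicate 2, for example, the exact 95% interval of the level was 4274 to 4433 CPM. Such intervals cover counting error within a library only, not the spread between replicates. They may be too narrow even for that, because reads copied by PCR are not independent molecules.

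miR-425-5p was counted at 573, 485 and 759 CPM in untreated replicates 1, 2 and 3 and at 1058, 1040 and 1343 CPM in H2O2 replicates 1, 2 and 3. Here every H2O2 library lay above every untreated library, with untreated replicate 3 the nearest. The mean went from 606 ± 140 CPM without H2O2 to 1147 ± 170 CPM with it (SD over 3 libraries each), which is 1.89-fold higher. The edgeR log2 fold change was 0.92 ± 0.36 (SE). It stood 17th of the 161 known rows in untreated and 14th in H2O2 exosomes, on 1283 to 5550 reads a library. Groups that do not overlap were the rule in these tables. Among all 161 known rows, 37.3% had all H2O2 libraries above and 46.6% all H2O2 libraries below the untreated ones, so nothing is read from the absence of overlap for the pair.

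**Figure D1:**
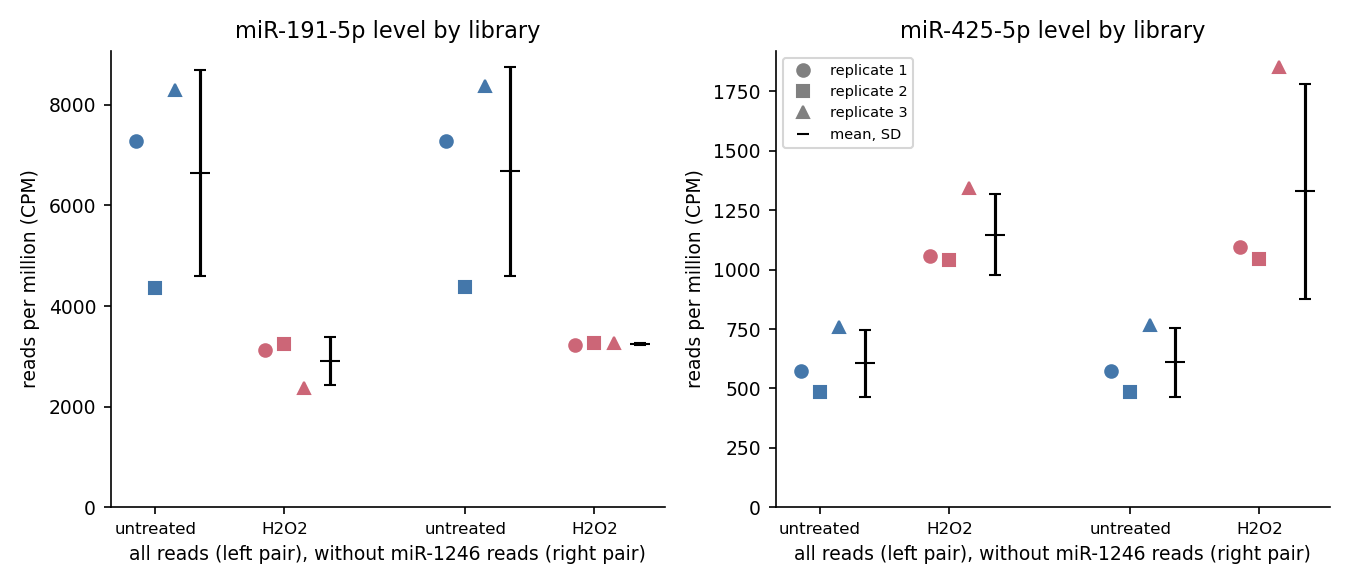
Level of miR-191-5p (left panel) and miR-425-5p (right panel) in CPM for each library (points, shaped by replicate), with the group mean and SD (black), on axes that start at 0. The left pair of groups in each panel uses all reads and the right pair leaves out miR-1246 reads, where the 3 H2O2 libraries of miR-191-5p come to 3231, 3261 and 3269 CPM.

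With totals that leave out miR-1246 reads, the levels of H2O2 replicate 3 moved up the most, since it held the most of them. miR-191-5p then came to 7288, 4369 and 8382 CPM in untreated replicates 1 to 3 and to 3231, 3261 and 3269 CPM in H2O2 replicates 1 to 3. The H2O2 libraries, which had spanned 2372 to 3252 CPM, then lay almost level, at 3254 ± 19.9 CPM (SD, n = 3). That spread is smaller than the counting error of a single library. On all reads, for example, the exact interval for counting error in H2O2 replicate 1 was 3062 to 3187 CPM. Nothing is therefore read from how level the H2O2 libraries lay. miR-425-5p came to 574, 487 and 768 CPM in untreated and 1094, 1043 and 1852 CPM in H2O2 replicates 1 to 3. H2O2 replicate 3 then stood well above H2O2 replicates 1 and 2. The SD of miR-425-5p in the H2O2 group was 453 CPM, against 170 CPM on all reads. The groups of both miRNAs stayed apart on this scale, and the fold of the means was 2.05 lower for miR-191-5p and 2.18 higher for miR-425-5p.

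The ratio of both counts within a library does not depend on any library total. For each read of miR-425-5p the untreated libraries held 12.7, 8.97 and 10.9 reads of miR-191-5p (replicates 1, 2 and 3), and the H2O2 libraries held 2.95, 3.13 and 1.77. The ratio was 10.9 ± 1.87 in untreated and 2.61 ± 0.740 in H2O2 exosomes (SD, n = 3 each), and the groups lay 5.85 apart at their nearest libraries. miR-191-5p had more reads than miR-425-5p in all 6 libraries. Library kits do not capture all miRNAs equally, so the ratio is read here only between libraries and not as the proportion of molecules.

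As a share of the reads of both, miR-425-5p made up 7.30%, 10.03% and 8.39% in the untreated libraries, and 25.3%, 24.2% and 36.2% in the H2O2 libraries, each in the order of replicates 1 to 3. The exact 95% intervals were narrow, from 9.51% to 10.6% in untreated replicate 2 and from 23.4% to 25.1% in H2O2 replicate 2, which are the nearest libraries of the 2 groups. H2O2 replicates 1 and 2 overlapped in their intervals, and H2O2 replicate 3, at 35.4% to 36.9%, lay above both. On the log2 scale the ratio of miR-425-5p to miR-191-5p was -3.43 ± 0.25 in untreated and -1.34 ± 0.45 in H2O2 exosomes (SD, n = 3 each). The difference was 2.08, a 4.24-fold shift of the ratio, and it was 1.82 without H2O2 replicate 3. Together the pair came to 7245 ± 2168 CPM before and 4063 ± 306 CPM after H2O2.

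**Figure D2:**
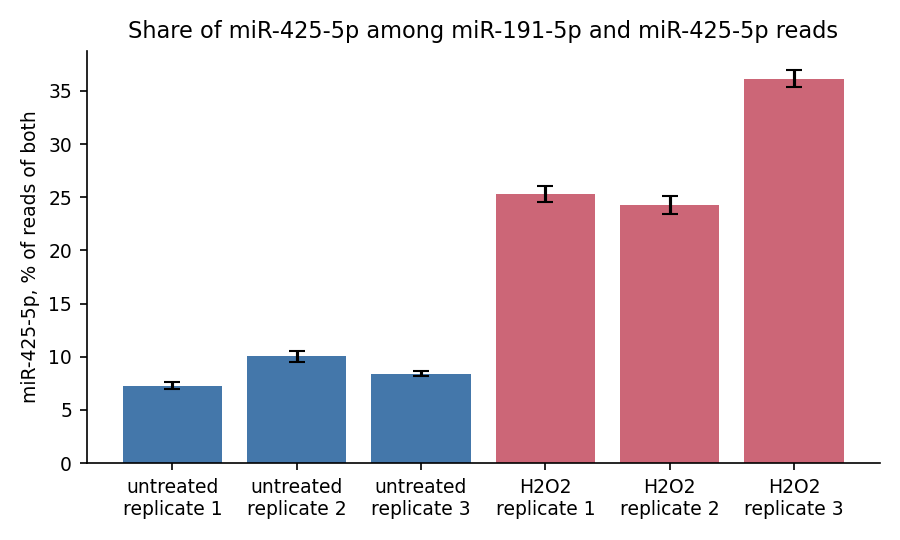
Reads of miR-425-5p as a percent of the reads of miR-191-5p and miR-425-5p together in each library (bars, from 0), with exact 95% intervals for counting error. The untreated libraries sit between 7.30% and 10.03% and the H2O2 libraries between 24.2% and 36.2%, with H2O2 replicate 3 the highest.

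How the shift of the ratio was divided between the miRNAs depended on the scaling. With library totals, miR-191-5p had the larger absolute log2 fold change (-1.19 against 0.92). With median-of-ratios scaling the values were -1.50 ± 0.48 and 0.67 ± 0.43 (SE), and on totals free of miR-1246 reads they were -1.04 ± 0.47 and 1.13 ± 0.44. The median-of-ratios factors came only from rows that the authors selected for a difference, from which a composition factor cannot be estimated. Median-of-ratios scaling moved the median log2 fold change of the 127 tested known rows by -0.25, and leaving out miR-1246 moved it by 0.19. The signs of both stayed as they were in all 15 alternatives, in which miR-191-5p ranged from -1.50 to -0.996 and miR-425-5p from 0.67 to 1.13. Leaving out a library gave -1.42 to -0.996 for miR-191-5p and 0.78 to 1.12 for miR-425-5p. Since the pair was chosen for opposite directions in these libraries, constant signs are no independent support.

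**Figure D3:**
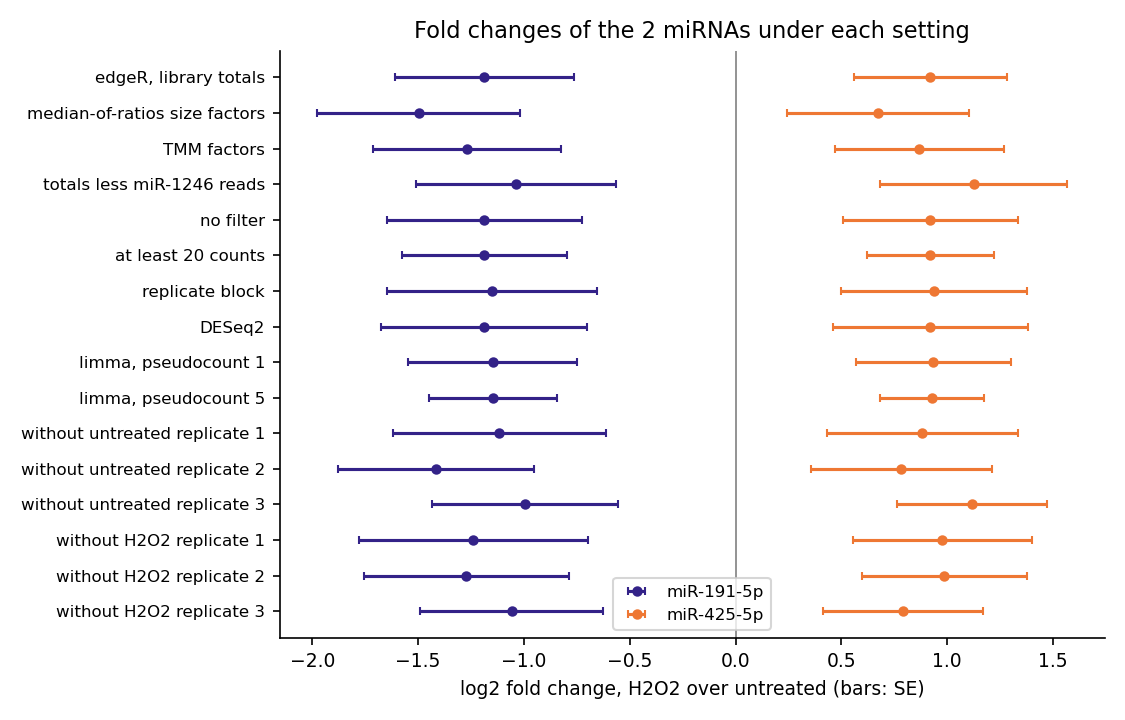
Log2 fold change of miR-191-5p and miR-425-5p, H2O2 over untreated (points), with SE (bars), for the edgeR fit on library totals and each alternative (rows). miR-191-5p lies between -1.50 and -0.996 and miR-425-5p between 0.67 and 1.13 in all alternatives.

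Both miRNAs stood at the edge of the authors' selection. In the authors' deposited table the log2 fold change was -1.03 for miR-191-5p, the smallest in size of the 82 known miRNAs listed as lower. It was 1.09 for miR-425-5p, the second smallest of the 79 listed as higher in the authors' deposited table. Near that edge on the lower side, the authors' deposited table gives -1.05 for miR-99a-5p and -1.06 for miR-1269b. On the higher side the authors' deposited table gives 1.05 for let-7f-5p, the smallest there, and 1.12 for miR-19b-3p. miRNAs beyond the edge were not analysed here. The median absolute log2 fold change of the 127 tested known rows in the edgeR fit was 1.55, above both members.

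Neighbouring hairpins in the same tables were counted by the direction in which their miRNAs are listed. The counts include miR-191-5p with miR-425-5p, which was chosen for its opposite listing. Only pairs with both miRNAs selected for a difference can appear, so the counts do not show how often neighbours part. Of the 161 known rows, 130 could be placed on a hairpin in the RefSeq table. Between hairpins on the same strand whose starts lie within 10 kb there were 25 pairs of listed miRNAs, of which 18 were listed in the same direction and 7 in opposite directions. Many of these pairs share a miRNA or a cluster and are not independent, and 4 of the 7 contain miR-502-3p. Within 1 kb there were 12 pairs, 9 in the same and 3 in opposite directions. The 3 were miR-191-5p with miR-425-5p, let-7a-3p with let-7f-5p, and miR-15b-5p with miR-16-2-3p.

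Of the 7 opposite pairs, miR-191-5p with miR-425-5p and miR-362-3p with miR-502-3p were the 2 in which both miRNAs come from the same arm of their hairpins. In the other pairs a 5p arm was set against a 3p arm. let-7a-3p, the minor arm of a let-7 hairpin, went from 281 ± 15.4 CPM without H2O2 to 62.2 ± 29.3 CPM with it (SD over 3 libraries each). Its neighbour let-7f-5p, a main let-7 arm that more than one hairpin yields, was at 17843 ± 7238 and 33276 ± 9782 CPM. miR-15b-5p was at 132 ± 60.3 and 270.4 ± 95.9 CPM, and the minor arm miR-16-2-3p at 796 ± 339 and 237 ± 181 CPM. In the edgeR test described below, let-7f-5p and miR-15b-5p did not pass (edgeR adjusted p = 0.12 and 0.053). let-7a-3p and miR-16-2-3p passed (edgeR adjusted p = 0.0089 and 0.035). miR-16-2-3p lost its call without untreated replicate 1 or 2, or H2O2 replicate 1 or 3.

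On the scale of log2(CPM + 1), the change of the ratio between the groups was 2.08 for miR-191-5p with miR-425-5p, the smallest of the 7 opposite pairs, which reached 3.68 for miR-362-5p with miR-502-3p. In the 18 pairs listed in the same direction it ran from 0.011 to 0.99, with a median of 0.29. The lowest value was that of let-7c-3p with miR-99a-5p, where let-7c-3p averaged 3.99 CPM without H2O2 and 1.03 CPM with it. The 1 added to each CPM shrinks changes at such low levels, also in pairs with miR-133a-3p or miR-502-5p. Pairs with such rows can therefore look more alike here than in the edgeR fit. Rows were selected for an absolute log2 fold change above about 1 in the authors' deposited table, so a pair listed in opposite directions had to differ by about the sum of both, and the gap between both kinds of pair follows from the selection. Among pairs listed in the same direction were the clustered miR-29b-3p and miR-29c-3p. Their edgeR log2 fold changes were 1.26 ± 0.33 and 0.99 ± 0.41 (SE). Reads of miR-29b-3p can also come from a hairpin on chromosome 7, away from this cluster. Another such pair was miR-99a-5p with let-7c-3p, with edgeR log2 fold changes of -1.23 ± 0.40 and -1.89 ± 0.63 (SE).

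**Figure D4:**
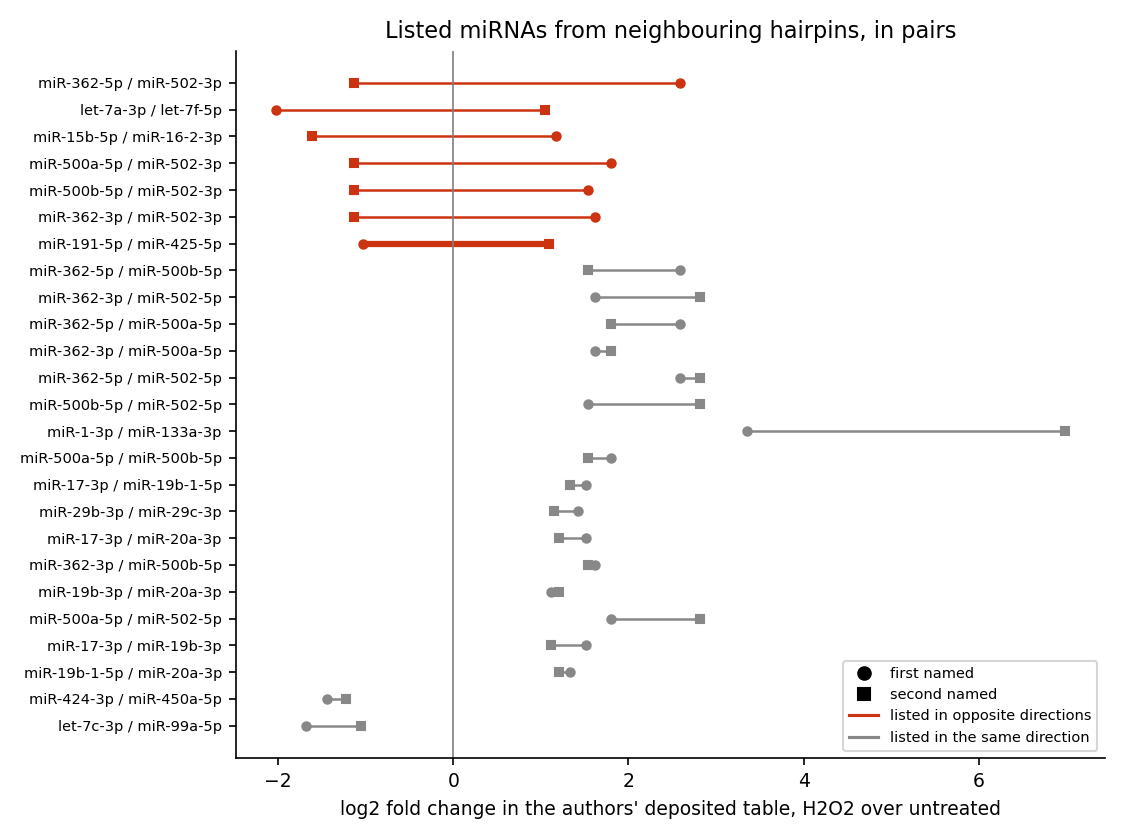
Log2 fold change, H2O2 over untreated, in the authors' deposited table for the 25 pairs of listed miRNAs from neighbouring hairpins (rows, ordered by the change of their ratio), with a circle for the miRNA named first and a square for the second. The 7 pairs listed in opposite directions are in red and cross 0, with miR-191-5p and miR-425-5p drawn thicker, and the 18 listed in the same direction are in grey.

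The known rows most like each member were found by the distance between their log2(CPM + 1) profiles, each centred on its own mean, over the 6 libraries and among 77 known rows with a mean of at least 10 CPM. They were chosen for their pattern and are described without a test. Nearest to miR-191-5p were miR-1301-3p (distance 0.51), miR-224-5p (0.53) and miR-30c-5p (0.66). Nearest to miR-425-5p were miR-29c-3p (0.43), miR-374a-3p (0.60) and miR-29b-3p (0.68). The distance between miR-191-5p and miR-425-5p themselves was 2.65.

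miR-1301-3p was at 166, 101 and 279 CPM in untreated replicates 1, 2 and 3 and at 69.8, 72.2 and 59.1 CPM in H2O2 replicates 1, 2 and 3. As for miR-191-5p, untreated replicate 2 was the lowest and untreated replicate 3 the highest of the untreated libraries, and H2O2 replicate 3 the lowest of all 6. miR-224-5p, whose hairpin lies in the gene of a GABA receptor subunit, averaged 2543 ± 908 CPM without H2O2 and 1050.3 ± 351 CPM with it (SD over 3 libraries each). miR-30c-5p, of the miR-30 family, was at 9973 ± 2027 and 4189 ± 1389 CPM. It was also the most abundant of the 3.

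miR-29c-3p was at 18.0, 19.7 and 29.2 CPM in untreated replicates 1, 2 and 3 and at 41.9, 47.3 and 44.1 CPM in H2O2 replicates 1, 2 and 3. Untreated replicate 3 was the nearest untreated library to the H2O2 group, as it was for miR-425-5p. miR-29b-3p averaged 143 ± 9.70 CPM without H2O2 and 343 ± 27.5 CPM with it, and miR-374a-3p 62.0 ± 2.91 and 129 ± 37.1 CPM (SD over 3 libraries each). The miR-29 family is known for acting on mRNAs of collagens and other matrix proteins. The mature sequences of the 6 rows are given, with the seed in capitals. miR-29b-3p and miR-29c-3p share their seed. No other name in the RefSeq table carries the seed of miR-191-5p, so the rows near it could not share it. The seed of miR-425-5p was not compared.
miR-1301-3p: uUGCAGCUgccugggagugacuuc
miR-224-5p: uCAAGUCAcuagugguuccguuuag
miR-30c-5p: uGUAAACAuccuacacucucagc
miR-29c-3p: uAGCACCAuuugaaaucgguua
miR-374a-3p: cUUAUCAGauuguauuguaauu
miR-29b-3p: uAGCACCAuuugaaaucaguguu
With Pearson correlation in place of distance the same 3 rows were nearest to miR-191-5p (r of 0.97, 0.97 and 0.93 over the 6 libraries, which include both groups). For miR-425-5p 0 of the 3 remained, and miR-500a-5p, miR-31-3p and miR-130a-5p came first (r of 0.99, 0.97 and 0.97), rows with larger differences between the groups.

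**Figure D5:**
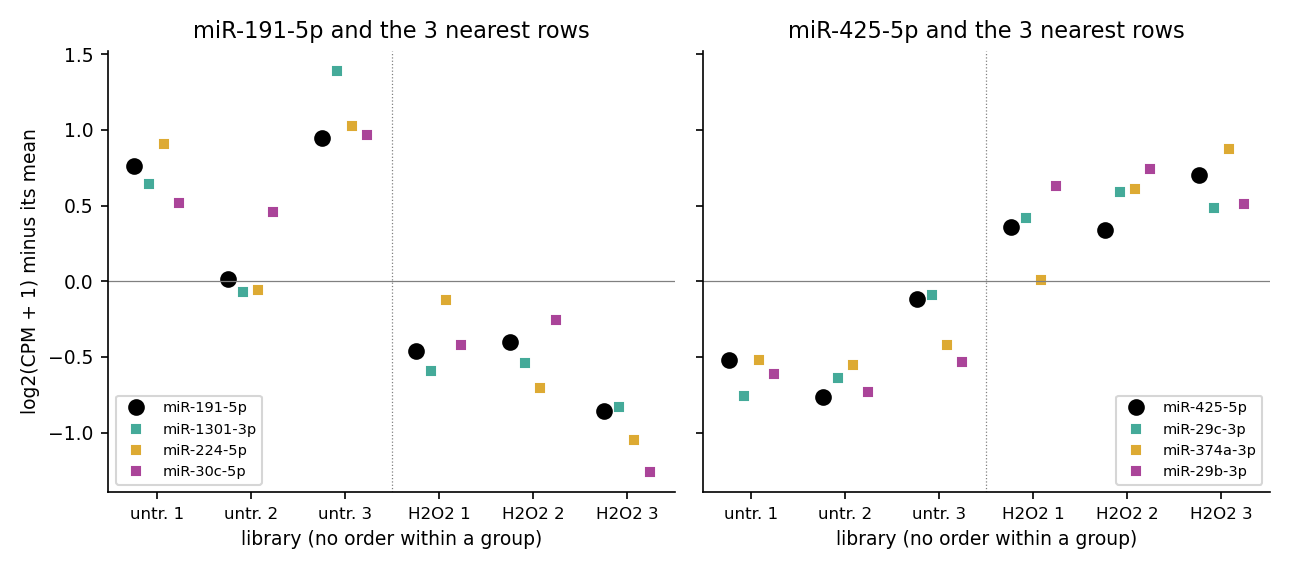
Log2(CPM + 1) minus its mean over the 6 libraries for miR-191-5p (left) and miR-425-5p (right) in black, with the 3 nearest known rows in colour. Points are offset sideways within a library and libraries of a group have no order. In the left panel the untreated libraries lie above the H2O2 libraries for each miRNA, and in the right panel the H2O2 libraries lie above the untreated ones.

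A list of reference miRNAs holds both members of the pair, and a list of senescence hairpins holds miR-191 and not miR-425. For these lists the edgeR quasi-likelihood test with Benjamini-Hochberg adjustment was run over all 186 known and predicted rows with enough counts. Of the 127 known rows tested, 39 (30.7%) passed as higher and 61 (48.0%) as lower in H2O2 exosomes. The balance was 24 higher and 66 lower with median-of-ratios scaling, and 45 higher and 42 lower on totals free of miR-1246 reads. Of 16 miRNAs often used as references, 3 are listed, namely miR-191-5p, miR-425-5p and miR-451a. The third, a red cell miRNA, fell from 10.1 ± 2.10 to 2.96 ± 2.04 CPM (SD over 3 libraries each), and its log2 fold change was -1.80 ± 0.59 (SE, edgeR adjusted p = 0.0262). The call was lost when H2O2 replicate 1, H2O2 replicate 3 or untreated replicate 2 was left out. The levels of miR-16-5p, miR-103a-3p, miR-423-5p and the other reference miRNAs were not analysed here.

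Of 9 hairpins linked to senescence of cultured keratinocytes, 2 have listed arms, MIR191 with miR-191-5p and miR-181a with its minor arms. The arm miR-181a-3p rose from 29.7 ± 15.5 to 78.9 ± 18.4 CPM, and the arm miR-181a-2-3p from 44.1 ± 7.93 to 114 ± 55.6 CPM (SD, n = 3 each). Their log2 fold changes were 1.40 ± 0.48 (edgeR adjusted p = 0.0282) and 1.37 ± 0.45 (edgeR adjusted p = 0.0264), opposite in sign to that of miR-191-5p. Neither passed when replicate 1 or 2 of either group was left out, and miR-181a-2-3p did not pass with median-of-ratios scaling. Of the tested known rows 78.7% passed in either direction, so passing is the rule among these selected rows.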

How the data were processed

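Exosomal RNA went into small RNA libraries (NEBNext kit), per the labels' protocols. Per the submitters' processing notes, bcl2fastq, FastQC, cutadapt and Bowtie 1.1.1 were among the upstream tools, while no source used here gives the build, catalogue or counting rules. The authors deposited raw read counts and, per the file headers, a normalized count, which the values show to be CPM of a fixed library total. For each row, all selected, the authors also deposited an unadjusted p-value, a log2 fold change and that change as a ratio. The adjusted p-values therefore cover selected rows, and are too small by an unknown amount.

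Library totals were recovered as count over CPM. Rows reaching 5 counts in 3 or more libraries were fitted with edgeR 4.0.16 in R 4.3.3 (glmQLFit, glmQLFTest, two-sided, threshold 0.05) on these totals with no composition factor, after a test on simulated data. SE is the log2 fold change over the root of F. Intervals are exact (Clopper-Pearson, scipy 1.17.1). Alternatives used limma 3.58.1 on log2(CPM + 1) and log2(CPM + 5), DESeq2 1.42.0, other scalings and filters, a replicate block and each library left out. The members and lists were chosen with earlier results of these data known. The rows named are the members, the 3 nearest to each, neighbouring pairs and listed members of the lists.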

Additional observations from a re-analysis of the deposited data

How the results depend on the processing

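The log2 fold changes of miR-191-5p and miR-425-5p kept their signs in all 15 alternatives and moved by at most 0.31 and 0.25, with median-of-ratios scaling. These moves were below the log2 SD between replicates pooled over both groups (0.39 and 0.27) but above that of the H2O2 group alone (0.248 and 0.206). The change of their log2 ratio (2.08) ran from 1.82 to 2.24 in 10. Whether replicate numbers pair the samples could not be told from the correlations. The correlation of same-numbered deviations was 0.083, 0.11 and 0.22. Values for unlike numbers ran from -0.20 to 0.12, the highest being untreated replicate 1 with H2O2 replicate 2. With the replicate block the values were -1.15 for miR-191-5p, 0.94 for miR-425-5p and 2.08 for the ratio. The ratio value could not move with the block, since each replicate number stands in both groups. With the block 40 known rows passed as higher and 60 as lower. Counts of calls depended more on the settings. Known rows passing as higher, 39, were 24 with median-of-ratios scaling and 8 to 39 with a library left out. Those passing as lower, 61, were 3 (without H2O2 replicate 1) to 41 with a library left out. Where that leaves a group of 2, fewer samples are tested. Opposite neighbouring pairs, 7 within 10 kb, were 3 within 1 kb and 9 within 50 kb. By correlation, 0 of the 3 rows nearest to miR-425-5p remained and the cause was not tested. With 3 libraries a group, the spread between libraries and not read depth limits the fold changes of the pair. The H2O2 levels of miR-191-5p without miR-1246 reads are an exception, since their spread was below counting error.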
